A study of Mus musculus with 9 samples.

Results

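The mRNAs of the urea cycle and of periportal ammonia handling were measured in mouse liver after treatment with an antisense oligonucleotide (ASO) against apoC-III, a plasma apolipoprotein that slows triglyceride clearance. They are the 10 genes whose symbol in the deposited table is *Cps1*, *Otc*, *Ass1*, *Asl*, *Arg1*, *Nags*, *Slc25a15*, *Gls2*, *Hal* or *Sds*, out of 51912 genes listed. All 10 were found and all 10 passed the filter on low values. RNA sequencing was done on livers of 9 fasted mice, 5 on apoC-III ASO and 4 on control ASO, with 50 mg/kg of ASO each week for 8 weeks by intraperitoneal injection. Every mouse of both groups was *Apoe*-/- *Ndst1* f/f *Alb-Cre*+, and thus lacked apoE in all cells and, through Cre driven by the albumin promoter, the heparan sulfate sulfotransferase NDST1 in hepatocytes. The groups therefore differ in the ASO within this one mutant background, and no wild-type liver was part of the comparison. Age was not given in the labels, and the diet is not named beside the RNA sequencing. Nothing in the labels describes a pool, so p-values measure the spread between single livers.

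The urea cycle turns ammonia, which is toxic, into urea. In liver it runs in periportal hepatocytes, the cells that portal blood meets first. CPS1 joins ammonia and bicarbonate to carbamoyl phosphate in the mitochondrion, OTC joins that to ornithine, and the cytosolic enzymes ASS1, ASL and ARG1 then make argininosuccinate, arginine and finally urea. Ammonia reaches the cycle from glutamine and other amino acids through periportal deaminases, while pericentral hepatocytes at the other end of the lobule take up what escapes and store it as glutamine.

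Promoter sequences are shown for *Nags* and *Hal*, whose p-values were the smallest of the 10, and for *Otc*, a core enzyme of the cycle, as a contrast. RefSeq (GRCm38.p6) gave a promoter for 5 of the 10 genes. Each line holds the 250 bases before the start site on the strand of the gene, 5′ to 3′, and capitals mark a match on either strand to 1 of 5 motifs searched. These were the TATA box, with the letters TATAAA, the motif CCAAT, which several general factors bind, the GC box, with the letters GGGCGG, the E-box of clock factors, with the letters CACGTG, and the full cAMP response element, with the letters TGACGTCA.
Nags, chr11:102145263-102145512, plus strand: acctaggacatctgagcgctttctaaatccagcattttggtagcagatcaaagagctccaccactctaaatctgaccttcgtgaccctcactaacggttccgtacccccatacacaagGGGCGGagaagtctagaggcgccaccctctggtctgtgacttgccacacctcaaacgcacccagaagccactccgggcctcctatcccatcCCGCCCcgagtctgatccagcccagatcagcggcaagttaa
Hal, chr10:93488518-93488767, plus strand: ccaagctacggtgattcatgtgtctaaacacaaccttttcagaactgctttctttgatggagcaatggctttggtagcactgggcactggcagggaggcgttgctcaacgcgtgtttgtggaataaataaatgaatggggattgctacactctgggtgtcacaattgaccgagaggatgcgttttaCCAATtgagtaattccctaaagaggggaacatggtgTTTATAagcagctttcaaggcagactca
Otc, chrX:10252055-10252304, plus strand: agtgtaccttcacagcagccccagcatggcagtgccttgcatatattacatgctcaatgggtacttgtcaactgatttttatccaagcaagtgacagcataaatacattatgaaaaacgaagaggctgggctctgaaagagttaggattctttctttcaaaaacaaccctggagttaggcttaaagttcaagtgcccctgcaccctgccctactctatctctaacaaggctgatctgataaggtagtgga

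The *Nags* window held 2 GC boxes, 132 and 41 bases before the start. *Hal* had a CCAAT box 64 bases before its start and the reverse complement of the TATA box at 28 bases. *Otc* had none of the 5 motifs in these letters. G and C made up 55.6% of the window for *Nags*, 45.6% for *Hal* and 43.6% for *Otc*, beside a median of 52.4% over all promoters. Among all 32851 promoter windows of this length, 32.7% held the GC box, 33.9% the CCAAT box, 12.4% the TATA box, 6.02% the E-box and 1.55% the cAMP response element. No match overlapped another. These matches describe letters in a window and no binding.

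Levels are given as coding TPM. TPM (transcripts per 1000000) divides reads by gene length, so levels can be compared between genes. Nuclear protein-coding genes made up only 3.03 to 5.31% of TPM in livers on apoC-III ASO and 1.94 to 8.64% in those on control ASO, while the small cytoplasmic 7SL RNA took 64.0 to 83.6% and 66.3 to 77.6%, and mitochondrial ribosomal RNA 8.43 to 27.7% and 16.4 to 25.6%. Protein-coding genes were therefore rescaled to 1000000 in each liver and divided by a median-of-ratios factor. Control ASO replicate 4 stood apart, with the lowest coding share and a factor of 0.496 against 0.950 to 1.44 in the apoC-III ASO livers, and fold changes of the 10 mRNAs that moved by over 1.5 times on the log2 scale without it are given without it as well. Replicates 1 to 3 of apoC-III ASO stood apart in circadian genes, whose values follow the results. Depth cannot be read from TPM. The targeted gene followed the labels. *Apoc3* had 334 to 623 coding TPM in all 5 livers on apoC-III ASO, beside 3170 to 4293 in the 4 on control ASO, and was lower by a log2 fold change of -3.01 (adjusted p = 3.83e-04, SE 0.23).

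None of the 10 mRNAs passed the test for a difference between apoC-III ASO and control ASO, which asked for a change over 1.5-fold and a limma p, adjusted by Benjamini-Hochberg, under 0.05. Of all 11954 genes tested, 2 did (0.0167%), both lower: *Apoc3* and the aminopeptidase gene *Anpep*. The study tested read counts with DESeq2 and reported more genes at these thresholds, in both directions. *Anpep* had a log2 fold change of -2.28 (adjusted p = 0.0480), and its call was lost when any of 7 of the 9 livers was left out, with log2 fold changes of -1.97 to -2.48 over all 9 omissions. The estimates for the 10 ran in both directions, with 4 above and 6 below control ASO and a median log2 fold change of -0.19, beside -0.0012 for all genes. In TPM as deposited 8 were above and 2 below, where the median of all genes was 0.11, and without factors all 10 were above, where it was 0.41. Relative to the median of all genes, *Otc*, *Ass1* and *Asl* were below in all 24 settings, *Cps1* and *Sds* in 23 and *Arg1* in 21, while *Hal* and *Gls2* were above in all 24, *Nags* in all 23 that tested it and *Slc25a15* in 20. These settings share livers and are not independent. In the main fit, 5 of the 7 urea cycle mRNAs were below control ASO, and so were 7 of 9 hepatocyte markers. Their median log2 fold changes were -0.23 and -0.24, and 0.013 and 0.029 with quantile normalization. At an unadjusted p under 0.05, *Nags* and *Hal* were higher in apoC-III ASO livers (2 of 10, where 2.99% of all genes were) and 0 of 10 were lower (2.58% of all genes). Without control ASO replicate 4 neither reached that p. With a replicate block in the fit, which takes apoC-III ASO replicate 5 out of the comparison, *Asl* and *Ass1* were lower at that p. The livers of both groups overlapped for each of the 10, while 1.83% of all genes tested had groups that did not overlap. For each of the 10 the 95% interval allowed a 1.5-fold difference in at least 1 direction, so that a moderate change could not be detected with these livers. In bulk liver RNA, fewer cells of a type and less RNA per cell cannot be told apart.

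**Figure D1:**
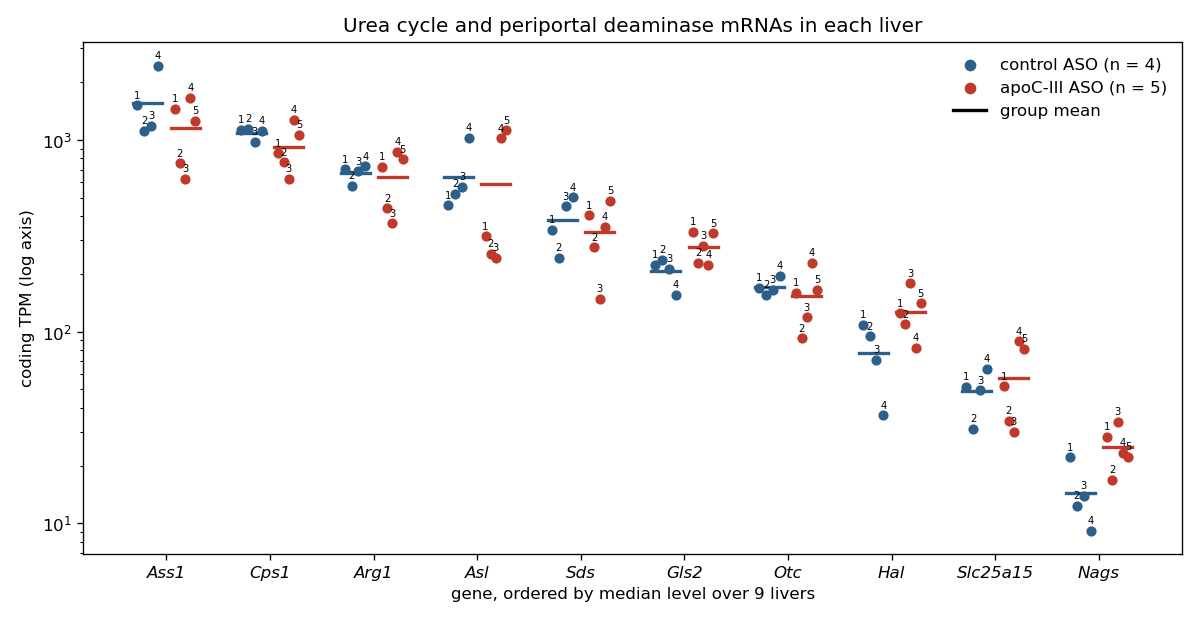
Coding TPM (vertical axis, log scale) of the 10 mRNAs, ordered along the horizontal axis by their median over 9 livers. Each dot is a liver with its replicate number, in blue for control ASO (n = 4) and red for apoC-III ASO (n = 5), and bars are group means. Dots of both colors overlap for every gene, and apoC-III ASO livers 2 and 3 are low for *Ass1*, *Cps1*, *Arg1*, *Asl* and *Otc*.

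The 10 mRNAs spanned a wide range of levels. *Ass1* had the highest median over the 9 livers at 1255 coding TPM, and 61 of the genes tested had a higher one. It was followed by *Cps1* at 1059, *Arg1* at 701, *Asl* at 521, *Sds* at 352, *Gls2* at 228, *Otc* at 165, *Hal* at 108, *Slc25a15* at 51.6 and *Nags* at 22.1. Only *Cps1* stood above its next neighbor, *Arg1*, in all 9 livers. *Ass1* exceeded *Cps1* in 7 of 9 and *Arg1* exceeded *Asl* in 6 of 9, so the order of those neighbors was not the same in every liver. For the remaining neighbors the higher gene led in 7 or 8 livers.

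The mitochondrial steps come first. *Cps1* (ENSMUSG00000025991; GRCm38 chr1:67123026-67231259, plus strand) encodes the rate-limiting enzyme of the cycle. Its levels were 852, 765, 627, 1276 and 1059 coding TPM in apoC-III ASO livers 1 to 5 and 1132, 1144, 975 and 1117 in control ASO livers 1 to 4. Control livers lay close together, whereas the apoC-III ASO livers spread from below to above them, with 3 under the lowest control liver and 1 over the highest. The means were 916 ± 255 (SD, n = 5) and 1092 ± 78.8 (SD, n = 4), with a log2 fold change of -0.30 (95% interval -0.82 to 0.23, adjusted p = 0.919). A fall below 0.566-fold and a rise above 1.17-fold lie outside that interval.

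*Nags* (ENSMUSG00000048217; chr11:102145513-102149477, plus strand) encodes N-acetylglutamate synthase, which makes the compound that CPS1 needs as an activator. It was the least abundant of the 10 and had the smallest p. ApoC-III ASO livers 1 to 5 had 28.3, 16.8, 33.8, 23.2 and 22.2 coding TPM, and control ASO livers 1 to 4 had 22.1, 12.3, 13.8 and 9.13. Of the 5 apoC-III ASO livers, 4 were above the highest control liver, replicate 5 of them by a narrow margin, and replicate 2 lay inside the control range. The mean was 24.9 ± 6.46 (SD, n = 5) against 14.3 ± 5.53 (SD, n = 4). The limma fit on log2(coding TPM + 1) gave a 1.72-fold difference (95% interval 1.13 to 2.63, unadjusted p = 0.0165, adjusted p = 0.864). An exact two-sided permutation test over the livers gave p = 0.0318, where 0.0159 is the smallest it can give. *Nags* ranked 219 of 11954 genes by p. Without control ASO replicate 4, the log2 difference was 0.61 (unadjusted p = 0.0513 by limma) instead of 0.78. A transcript annotated on the opposite strand, *Gm11586*, overlaps an exon of *Nags* and had at most 0.193 TPM as deposited, beside 0.0880 to 2.03 TPM for *Nags*. Whether strand was used in counting is not given in the sources used here.

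*Otc* (ENSMUSG00000031173; chrX:10252305-10321024, plus strand), for ornithine transcarbamylase, had 159, 92.3, 118, 227 and 166 coding TPM in the apoC-III ASO livers. The control ASO livers had 170, 156, 165 and 196. As with *Cps1*, the controls were close together, and replicates 2 and 3 of apoC-III ASO were below them and replicate 4 above. The log2 fold change was -0.23 (95% interval -0.80 to 0.34, adjusted p = 0.948). *Slc25a15* (ENSMUSG00000031482; chr8:22375551-22398597, minus strand) encodes the carrier that exchanges ornithine and citrulline across the inner mitochondrial membrane. It had 51.7, 34.3, 29.9, 89.0 and 81.4 coding TPM on apoC-III ASO and 51.6, 31.0, 49.4 and 63.9 on control ASO. Replicates 4 and 5 were above every control liver and replicate 3 was just below the lowest. Its log2 fold change of 0.14 (95% interval -0.63 to 0.91, adjusted p = 0.989) was the smallest in size of the 10 and turned to -0.054 without apoC-III ASO replicate 4. Without control ASO replicate 4 it was 0.28.

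The cytosolic steps follow. *Ass1* (ENSMUSG00000076441; chr2:31470207-31520672, plus strand), for argininosuccinate synthase, had 1456, 755, 628, 1654 and 1255 coding TPM in apoC-III ASO livers and 1516, 1113, 1188 and 2438 in control ASO livers. Replicates 2 and 3 of apoC-III ASO were below all controls, none was above them, and control ASO replicate 4 was the highest of the 9. The log2 fold change was -0.47 (95% interval -1.23 to 0.29, adjusted p = 0.909), the lowest of the 10. Without control ASO replicate 4 it was -0.23.

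*Asl* (ENSMUSG00000025533; chr5:130011258-130029247, minus strand), for argininosuccinate lyase, had the largest SD of log2 levels over the 9 livers, at 0.86. ApoC-III ASO livers 1, 2 and 3 had 314, 253 and 242 coding TPM, while livers 4 and 5 had 1019 and 1122. Control ASO livers had 456, 521, 567 and 1023. The apoC-III ASO livers thus fell on both sides of the first 3 control livers, and the highest liver was 4.64-fold above the lowest. The group means, 590 ± 441 (SD, n = 5) and 642 ± 258 (SD, n = 4), differed by less than either SD, and the log2 fold change was -0.39 (95% interval -1.48 to 0.71, adjusted p = 0.959), or -0.14 without control ASO replicate 4. Relative to *Ass1*, the enzyme before it, *Asl* ranged from 21.6% to 89.4% within apoC-III ASO livers and from 30.1% to 47.8% within control ASO livers.

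*Arg1* (ENSMUSG00000019987; chr10:24915221-24927484, minus strand) encodes arginase 1, which releases urea. Its 5 values on apoC-III ASO were 722, 439, 367, 863 and 792 coding TPM and its 4 values on control ASO 701, 576, 684 and 726. Replicates 2 and 3 of apoC-III ASO were under the controls and replicates 4 and 5 over them. The log2 fold change was -0.15 (95% interval -0.77 to 0.47, adjusted p = 0.974). The other arginase gene, *Arg2*, had a mean under 1 coding TPM and was not tested.

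The deaminases feed ammonia into the cycle. *Hal* (ENSMUSG00000020017; chr10:93488768-93519304, plus strand) encodes histidine ammonia lyase, the first enzyme of histidine breakdown. It had 124, 109, 179, 82.4 and 140 coding TPM in apoC-III ASO livers and 108, 94.4, 71.2 and 36.6 in control ASO livers. Replicate 4 of apoC-III ASO lay within the controls and the other 4 were above them, replicate 2 by less than 1 coding TPM. The means were 127 ± 36.0 (SD, n = 5) and 77.7 ± 31.4 (SD, n = 4). The limma fit on log2(coding TPM + 1) gave a 1.70-fold difference (95% interval 1.03 to 2.80, unadjusted p = 0.0394, adjusted p = 0.878). An exact two-sided permutation test gave p = 0.0635. The log2 difference was 0.76 with all livers and 0.44 without control ASO replicate 4.

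*Gls2* (ENSMUSG00000044005; chr10:128194457-128210004, plus strand) encodes the liver glutaminase, which releases ammonia from glutamine beside CPS1. ApoC-III ASO livers had 331, 228, 280, 222 and 325 coding TPM and control ASO livers 224, 236, 212 and 155. Replicates 1, 3 and 5 were above every control liver and replicates 2 and 4 were within the controls. The log2 fold change was 0.42 (95% interval -0.06 to 0.90, adjusted p = 0.889), with an exact permutation p of 0.0794. The gene shares exon sequence with *Spryd4* on the opposite strand, which had at most 0.347 TPM as deposited.

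*Sds* (ENSMUSG00000029597; chr5:120476526-120483932, plus strand) encodes serine dehydratase, which splits serine into pyruvate and ammonia. The apoC-III ASO livers had 405, 274, 148, 352 and 481 coding TPM, and the control ASO livers 338, 242, 450 and 502. Only replicate 3 of apoC-III ASO lay outside the control range, below it. Its log2 fold change was -0.26 (95% interval -1.02 to 0.51, adjusted p = 0.963), or -0.11 without control ASO replicate 4. *Plbd2* and *Gm15690*, on the opposite strand, share exon sequence with *Sds* and had at most 1.17 and 0.0450 TPM as deposited. The related gene *Sdsl* had a log2 fold change of -0.18.

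**Figure D2:**
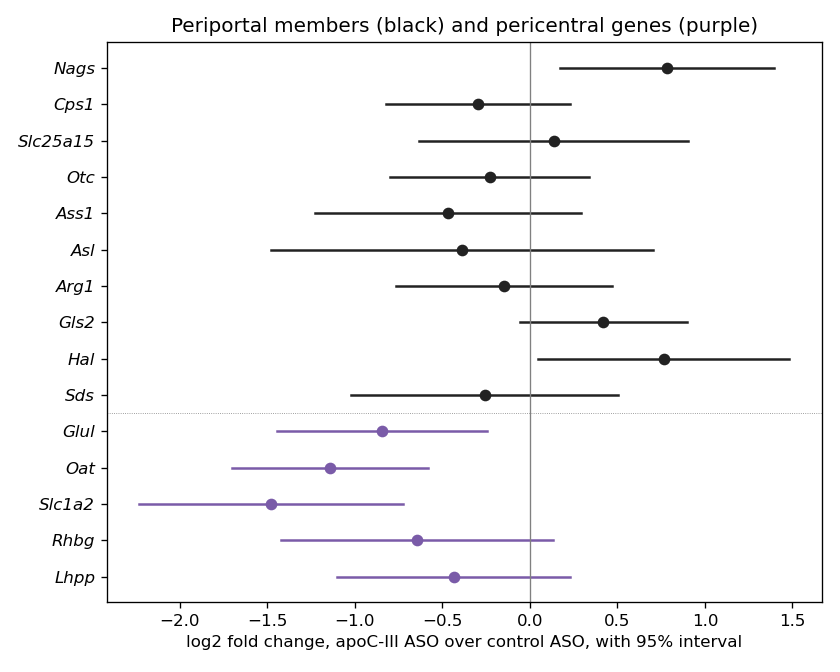
Log2 fold change of apoC-III ASO over control ASO (dots) with its 95% interval (lines) for the 10 periportal mRNAs in black and, in purple, 5 genes of pericentral glutamine and ornithine handling. *Nags* and *Hal* have intervals above 0, *Glul*, *Oat* and *Slc1a2* have intervals below 0, and none of the 15 passed the adjusted test.

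Ratios of mRNAs within a liver do not depend on how livers are scaled. *Hal* was 14.6, 14.2, 28.5, 6.46 and 13.3% of *Cps1* in the apoC-III ASO livers and 9.59, 8.25, 7.31 and 3.27% in the control ASO livers. Replicate 4 again lay within the controls and the other 4 above. *Nags* was 2.97 ± 1.48% of *Cps1* (SD, n = 5) against 1.32 ± 0.49% (SD, n = 4), and *Gls2* was 32.3 ± 10.4% against 19.0 ± 3.50%, each with 4 of 5 apoC-III ASO livers above the highest control liver. *Otc* to *Cps1* was the steadiest of the ratios, between 12.1% and 18.9% in all 9 livers. *Arg1* to *Cps1* lay between 50.3% and 84.8%. *Cps1* itself was below every control liver in 3 of the 5 apoC-III ASO livers, which raises each ratio to it there. *Hal* over *Sds* had 2 of 5 apoC-III ASO livers above the highest control liver and *Nags* over *Slc25a15* had 3 of 5. *Gls2* over *Glul* is given below. These ratios are descriptions and were not tested.

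The pericentral genes were compared with these because they handle the same ammonia at the other end of the lobule. Of 6 listed genes for glutamine and ornithine handling there, 5 were tested, all 5 estimates were below control ASO, 3 had an unadjusted p under 0.05 and none passed the adjusted test. Their median log2 fold change was -0.85. Among all genes tested, 2.58% were lower at an unadjusted p under 0.05 and 1.83% had groups that did not overlap. The list was chosen with earlier results of these data known. Without factors, 1 of the 5 estimates was above control ASO, and in TPM as deposited 4 were tested and all 4 were below. *Glul* encodes glutamine synthetase, which binds ammonia to glutamate. It had 206, 208, 220, 251 and 359 coding TPM on apoC-III ASO and 428, 358, 333 and 720 on control ASO, so that only replicate 5 reached the controls, with a log2 fold change of -0.85 (adjusted p = 0.864, SE 0.27). *Oat*, for ornithine aminotransferase, had 149 to 208 coding TPM on apoC-III ASO and 278 to 638 on control ASO. These did not overlap, and the log2 fold change was -1.14 (adjusted p = 0.647, SE 0.26). The study, which tested counts of these livers with DESeq2, shows *Oat* in its heat map of genes with adjusted p under 0.05. The direction of *Oat* here is therefore not independent evidence. *Slc1a2*, a glutamate transporter, was at 133 to 295 against 368 to 1153 coding TPM, again without overlap, with a log2 fold change of -1.48 (adjusted p = 0.731, SE 0.34). These 3 log2 fold changes were -0.61, -0.90 and -1.13 without control ASO replicate 4.

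Glutaminase and glutamine synthetase work in opposite directions, so their mRNAs were set against each other within each liver, a ratio among those chosen with earlier results known. *Gls2* was 160, 110, 128, 88.5 and 90.6% of *Glul* in apoC-III ASO livers and 52.2, 66.0, 63.7 and 21.6% on control ASO. No control liver reached the lowest apoC-III ASO liver. The means were 115 ± 29.8% (SD, n = 5) and 50.9 ± 20.4% (SD, n = 4). The gap does not rest on control ASO replicate 4, since the lowest apoC-III ASO liver was at 88.5% and the highest control liver, replicate 2, at 66.0%. *Glul* alone came close to such a gap, since only replicate 5 of apoC-III ASO reached the controls in it. How often ratios of other gene pairs separate the groups was not counted.

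**Figure D3:**
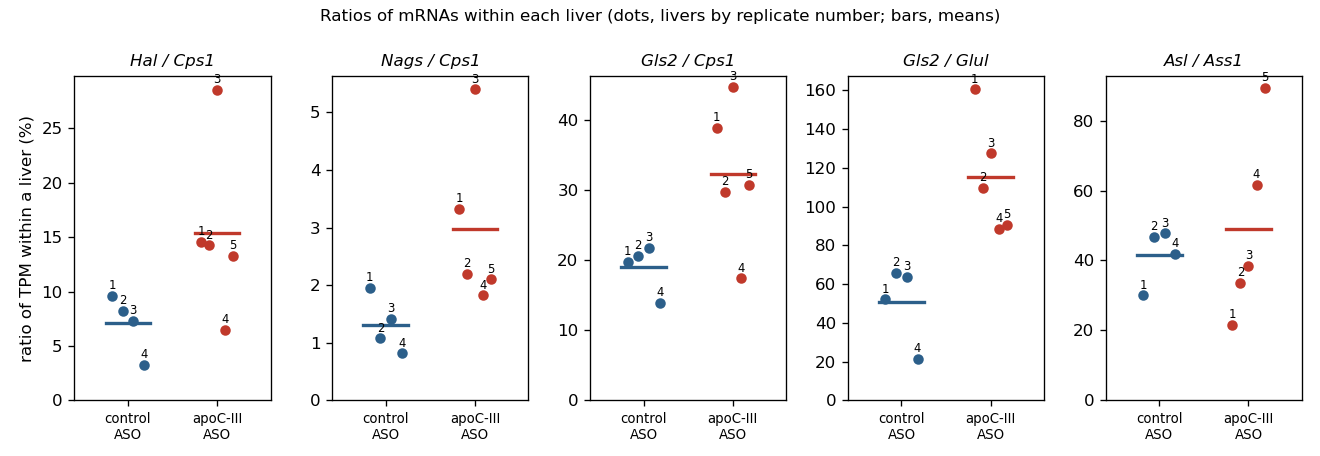
Ratio of TPM within each liver in percent (vertical axes, from 0) for *Hal*, *Nags* and *Gls2* over *Cps1*, *Gls2* over *Glul*, and *Asl* over *Ass1*. Dots are livers with their replicate number, control ASO (n = 4) in blue and apoC-III ASO (n = 5) in red, and bars are means. *Gls2* over *Glul* is 88.5% or more in every apoC-III ASO liver and 66.0% or less in every control liver, while the other panels overlap. The ratios were chosen with earlier results known.

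Other genes of lobular zonation were counted in the same way. Of 10 periportal landmark genes tested, 4 estimates were above and 6 below control ASO (median log2 fold change -0.051). Of 10 pericentral landmark genes tested, all 10 estimates were below (median -0.39). Without control ASO replicate 4, 8 of these 10 were below (median -0.24). Without factors 7 of the 10 were above and in TPM as deposited 2 of 7, but relative to the median of all genes the list's median stayed below, at -0.32 and -0.19. One of these, *Gulo*, a vitamin C synthesis gene, had 93.4 to 120 against 161 to 222 coding TPM (log2 fold change -0.77, SE 0.19, adjusted p = 0.775). *Cyp2e1*, a pericentral cytochrome P450, had a log2 fold change of -0.61 (SE 0.33), and -0.38 (SE 0.32) without control ASO replicate 4. None of the 20 passed the adjusted test.

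Genes that supply nitrogen and bicarbonate to the cycle did not pass the test either. Of 11 tested, 4 estimates were above and 7 below control ASO, none with an unadjusted p under 0.05, and 6 were above without control ASO replicate 4. *Glud1*, for the glutamate dehydrogenase that releases ammonia from glutamate, had a log2 fold change of 0.29 (SE 0.22), *Gpt*, for alanine aminotransferase, -0.40 (SE 0.25), and *Slc25a13*, for the carrier that exports aspartate from mitochondria, -0.25 (SE 0.22). Among 8 tested genes of histidine, serine, proline and threonine breakdown, 4 estimates were above and 4 below. *Amdhd1*, which acts after *Hal* in histidine breakdown, had a log2 fold change of 0.39 (SE 0.32), *Agxt*, for alanine-glyoxylate aminotransferase, 0.39 (SE 0.29), and *Prodh*, for proline dehydrogenase, -0.34 (SE 0.25).

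Amino acid transporters had 1 estimate above and 5 below control ASO among 6 tested. *Slc7a2*, the liver's carrier for arginine and other cationic amino acids, had 283, 259, 176, 625 and 565 coding TPM on apoC-III ASO and 495, 357, 420 and 663 on control ASO. Its apoC-III ASO replicates 1 to 3 were below all controls, as for *Asl*. *Slc38a2*, a carrier of neutral amino acids, had the same 3 livers lowest, with a log2 fold change of -0.43 (SE 0.44), and *Slc43a1* had -0.33 (SE 0.31). Of 5 tested genes that use arginine outside the cycle, *Gatm*, for the first enzyme of creatine synthesis, had 0.93 (SE 0.50), *Odc1*, for ornithine decarboxylase, -0.40 (SE 0.48), and *Agmat* 0.29 (SE 0.24). The regulators of amino acid breakdown had 8 of 10 estimates above control ASO (median 0.11), but 4 of 10 without control ASO replicate 4 (median -0.11) or without apoC-III ASO replicate 5 (median -0.075), among them the transcription factor gene *Hnf4a* with a log2 fold change of 0.40 (SE 0.26), and *Klf15* had -0.28 (SE 0.27). No gene of these lists had an unadjusted p under 0.05.

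The 10 mRNAs did not vary together in one way. By the root mean square difference of their centered log2 levels over 9 livers, *Otc* and *Arg1* (0.19), *Cps1* and *Otc* (0.20) and *Cps1* and *Arg1* (0.21) were the most alike. *Nags* and *Hal* differed by 0.33. The 3 members with the largest SD were *Asl*, *Hal* and *Ass1*, and the genes with the nearest pattern over the 9 livers were *Maff* (0.11), *Psmd9* (0.22) and *Fam195a* (0.24) for *Asl*, *Baz2a* (0.18), *Traf5* (0.19) and *Sh3d19* (0.21) for *Hal*, and *Atp5d* (0.13), *Hadh* (0.15) and *Fgfr1* (0.16) for *Ass1*. *Maff* had 0.623 to 1.13 coding TPM in apoC-III ASO livers 1 to 3, 4.86 and 5.74 in livers 4 and 5, and 1.71 to 4.68 in control ASO livers. At levels this low, the 1 added before taking logs shapes the pattern of *Maff*. The nearest genes were picked from all genes tested, and how near they come by chance was not worked out.

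The split of the apoC-III ASO livers in *Asl* and *Slc7a2* was also present in the circadian clock. *Ciart*, a clock repressor, had 3.69, 3.84 and 3.11 coding TPM in apoC-III ASO livers 1 to 3, 198 and 282 in livers 4 and 5, and 69.9 to 173 in control ASO livers. *Arntl*, which encodes the clock activator BMAL1, ran the other way, with 17.7, 11.1 and 30.9 in livers 1 to 3, 0.740 and 2.75 in livers 4 and 5, and 0.320 to 2.46 in controls. *Per2*, another clock repressor, had 3.35 to 8.31, then 25.1 and 40.5, and 12.1 to 130 in controls. Clock genes thus moved with the lowest *Asl*, *Cps1* and *Slc7a2* livers, and their part in the result was not tested. The other members did not share this split. ApoC-III ASO liver 1 lay within the control range for *Ass1*, *Arg1*, *Otc*, *Slc25a15* and *Sds*, and above it for *Nags*, *Hal* and *Gls2*. Of 12 tested clock genes, 3 had an unadjusted p under 0.05 and none passed the adjusted test. Of these 3, 1 was higher and 2 were lower, where 2.99% and 2.58% of all genes were. The list of glucagon and fasting genes had 3 of 9 estimates above control ASO (median -0.15), but 6 of 9 without control ASO replicate 4 (median 0.11) and 5 of 9 without apoC-III ASO replicate 3 (median 0.045). *Tat*, for tyrosine aminotransferase, was at 346 to 731 coding TPM in apoC-III ASO livers 1 to 3, 2271 and 1617 in livers 4 and 5, and 783 to 923 in control ASO livers 1 to 3 but 4174 in replicate 4. *Pdk4*, which rises in fasting, was at 24.9 in that liver and at 1.62 to 2.72 in the other controls, against 3.67 to 23.5 on apoC-III ASO. *Angptl4* had a log2 fold change of -0.47 (SE 0.38).

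**Figure D4:**
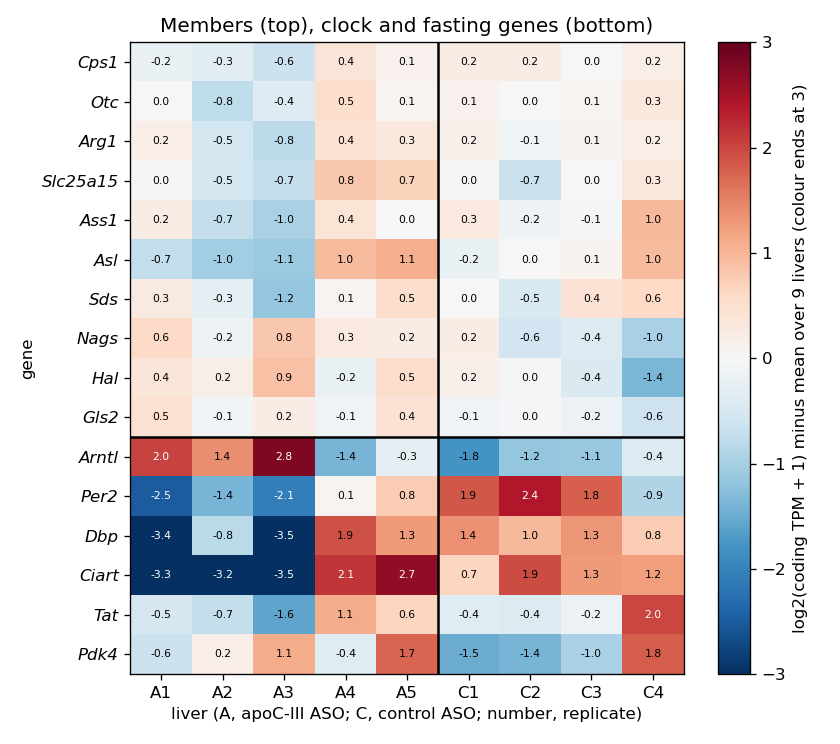
Log2(coding TPM + 1) of each gene minus its mean over the 9 livers (color and number, red above and blue below), for the 10 mRNAs above the line and clock and fasting genes below it, with apoC-III ASO livers A1 to A5 to the left and control ASO livers C1 to C4 to the right. Livers A1 to A3 are low for *Asl*, *Cps1* and *Ciart* and high for *Arntl*, and C4 is low for *Hal* and *Nags* and high for *Ass1* and *Tat*.

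Hepatocyte markers, with *Alb* among them, were abundant in every liver, and the 9 found of 10 summed to 31937 to 68572 coding TPM on apoC-III ASO and 47551 to 52059 on control ASO. Of these 9, 2 estimates were above and 7 below control ASO (median log2 fold change -0.24). At an unadjusted p under 0.05, 1 of them (*Serpina1c*) was lower, where 2.58% of all genes were. Markers of Kupffer cells and macrophages summed to 93.0 to 140 and 82.5 to 143, and those of endothelial cells to 96.9 to 145 and 117 to 143, with none of 15 genes at an unadjusted p under 0.05. Stellate cell and fibroblast markers summed to 122 to 148 and 136 to 259. At an unadjusted p under 0.05, 2 of 7 were lower, where 2.58% of all genes were. These were *Lrat* (log2 fold change -0.89, no overlap) and *Dcn* (-0.57). Cholangiocyte markers summed to 43.3 to 91.0 and 48.7 to 123. All 6 lymphocyte, 4 adipocyte and 4 exocrine pancreas markers had means under 1 coding TPM. Erythroid markers summed to 949 in apoC-III ASO replicate 4 and 2183 in control ASO replicate 4, and to 49.8 to 204 in the other livers. Their part in the differences above was not tested.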

How the data were processed

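Total RNA was taken from the livers of 9 mice, depleted of ribosomal RNA and sequenced as stranded single-end libraries. The authors deposited TPM per gene. The submitters' notes name kallisto 0.43.1 and GRCm38, whereas the study's methods describe STAR, featureCounts and DESeq2, so which pipeline made the deposited TPM is not known. Each column of TPM summed to 1000000. Read depth cannot be recovered from TPM, and counting errors of single livers are not given.

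Of the 51912 Ensembl identifiers, 51633 were found in GENCODE M21. The 21780 nuclear protein-coding genes were rescaled to 1000000 in each liver and divided by median-of-ratios factors over 12256 genes (coding TPM). The 11954 genes with a mean of at least 1 coding TPM were tested with limma 3.58.1 in R 4.3.3 (lmFit, eBayes with trend) on log2(coding TPM + 1), 5 apoC-III ASO against 4 control ASO livers, with no covariate. Fold changes are on that scale, which understates changes of low genes. Calls needed over 1.5-fold change and p under 0.05 after Benjamini-Hochberg adjustment. Exact two-sided permutation tests used all 126 splits of coding TPM on the log2 scale. The fitting steps were tested on simulated data. Sums, ratios and plots were made in Python 3.11.15 (numpy 2.4.6, pandas 2.3.3, matplotlib 3.10.9).

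The members, the 19 other lists and the tests were chosen with earlier results of these data known. Besides the members and *Apoc3*, named genes are, from each list other than the marker lists, up to 3 with the largest change and up to 5 with an unadjusted p under 0.05, then the 3 most like each of the 3 most variable members, and paralogs or overlapping genes. Of the genes this rule names, 2 are not reported here. *Anpep*, the marker genes and the plotted genes *Rhbg*, *Lhpp* and *Dbp* were named after their values were seen. Alternatives covered the scaling, the pseudocount, the filter, eBayes settings, array weights, a replicate block and leaving out each liver.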

Additional observations from a re-analysis of the deposited data

Results flagged for a closer look

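In groups of 4 or 5 livers, 84 groups of values were examined for a liver whose gap to its nearest neighbor took up most of the group's range, and 7 had one. Chance alone marks about 1 in 20 groups if values are normal and groups independent. That rate need not hold here, since the values were not on a log scale and all groups share the same livers. Many of the genes were also chosen for large changes. Among the 10 mRNAs of the report, *Cps1* in control ASO replicate 3 was the only one, at 975 coding TPM beside 1117 to 1144 in the other controls. The narrow range of those 3 livers made the gap stand out, and the difference is smaller than the spread of the apoC-III ASO livers.

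Control ASO replicate 4 held 5 of the 7. It had 59.1 coding TPM of *Odc1* against 13.3 to 19.9 in the other controls, 1153 of *Slc1a2* against 368 to 495, 7016 of *Cyp2e1* against 3504 to 3955, 4174 of *Tat* against 783 to 923, and 24.9 of *Pdk4* against 1.62 to 2.72. The remaining one was *Sox9*, a cholangiocyte and periportal hepatocyte gene, in apoC-III ASO replicate 3, at 4.54 coding TPM against 1.45 to 2.16.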

How the results depend on the processing

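None of the 10 mRNAs was called under any alternative. *Hal* and *Nags* kept their direction in each of them that tested them (*Nags* fell under the filter when all genes set the factors). *Gls2* and *Slc25a15* kept theirs under each change of scaling alone. The signs of the other 6 depended on the scaling, which also moved all genes. In TPM as deposited, where the median of all genes moved to 0.11, the log2 fold change was 0.030 for *Cps1*, 0.048 for *Otc*, 0.16 for *Arg1* and 0.062 for *Sds*. Without factors the median moved to 0.41 and all 10 were positive, with 0.18 for *Cps1*, 0.25 for *Otc*, 0.012 for *Ass1*, 0.093 for *Asl*, 0.33 for *Arg1* and 0.22 for *Sds*. Quantile normalization gave 0.013 for *Cps1* and 0.070 for *Arg1*. TPM as deposited without control ASO replicate 4, with a median of -0.23, gave -0.036 for *Slc25a15* and -0.049 for *Gls2*. Leaving out 1 liver at a time gave -0.28 to 0.028 for *Arg1*, -0.064 to 0.33 for *Slc25a15* and -0.46 to 0.0062 for *Sds*, with the sign turned by apoC-III ASO replicate 3 for *Arg1* and *Sds* and by apoC-III ASO replicates 4 and 5 and control ASO replicate 2 for *Slc25a15*.

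All genes called numbered 2, and 11 in TPM as deposited, where *Apoc3* was at -2.62 (adjusted p = 0.104). They numbered 4 there without control ASO replicate 4, and 1 without factors, with a pseudocount of 5, with no filter on low values or without the trend, and 1 to 3 with 1 liver left out. *Anpep* was lost without any 1 of the apoC-III ASO livers or control ASO replicates 1 or 3, although its log2 fold change there was -2.22 to -2.43 beside -2.28. It was lost too with the replicate block (adjusted p = 0.243), in TPM as deposited with or without control ASO replicate 4, with factors from all genes, and in each alternative above with 1 call. The causes were not tested.

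Deviations from the group mean correlated by 0.066, 0.12, 0.026 and 0.19 between livers with equal replicate numbers. Between livers with unlike numbers they correlated by -0.21 to 0.18. These values cannot tell whether equal numbers pair the livers, and this was not tested. A replicate block gave 3 called genes and -0.023 for *Slc25a15*, and changed no call of the 10. It moved *Asl* from -0.39 (SE 0.50) to -0.70 (SE 0.25) and *Ass1* from -0.47 (SE 0.35) to -0.52 (SE 0.22). Both were then lower at an unadjusted limma p under 0.05 (adjusted p = 0.606 and 0.624). No control liver has the number of apoC-III ASO replicate 5, so the block takes that liver out of the comparison. Leaving it out without a block gave the same log2 fold changes for *Asl*, *Ass1* and *Slc25a15*. The SE was then 0.46 for *Asl* and 0.38 for *Ass1*, and neither was under that p. Of all 11954 genes, 933 were under that p with the block and 665 in the main fit.

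The absence of depth, 4 and 5 livers, and a coding share of a few percent limit what these data can detect.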
